A study of Mus musculus with 15 samples.

Results

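The matrix metalloproteases (MMPs), the ADAMTS proteases and their tissue inhibitors (TIMPs) were followed across cultured pancreatic stellate cells and pancreatic cancer cells of the mouse. Members were chosen by gene name alone: each probe that is no control and whose name in the array files was Mmp with a number (with or without a or b), Adamts with a number, or Timp1 to Timp4. This gave 91 of 56605 probes, for 46 of 37008 genes: 23 Mmp genes with 33 probes, 19 Adamts genes with 49 and 4 Timp genes with 9.

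Expression was measured on 1-colour Agilent arrays in 15 samples, 3 in each of 5 groups. Pancreatic stellate cells (PSC), the fibroblast-like cells that lay down the pancreatic stroma, came from mice that were wild-type (PSC WT) or heterozygous (PSC HT). They were cultured for 2 weeks, by which time they are activated. Mouse pancreatic cancer cells were kept for 24 h in control medium (cancer control), or in medium conditioned by WT PSC (WT medium) or by HT PSC (HT medium). The locus at which the HT mice are heterozygous, the cancer cell line and the ages of the mice do not appear in the labels used here, nor does any allele that all groups might share. Whether replicates are separate cultures or animals is not said in the labels. The p-values therefore measure the spread among these arrays alone, and that spread may be technical.

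MMPs are zinc-dependent proteases, secreted or bound to the cell surface as inactive precursors, that cut collagens, gelatin, laminin, elastin and other matrix proteins as well as growth factors and receptors. ADAMTS proteases are secreted enzymes with thrombospondin repeats: one branch cuts the large proteoglycans aggrecan and versican, another trims the ends of procollagens. TIMPs bind the active sites of MMPs, and TIMP3, which stays fixed in the matrix, also blocks ADAMTS enzymes. Activated stellate cells are a main source of both the matrix and its proteases in pancreatic cancer.

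Values are log2 signals relative to the 75th percentile of all spots of the same array, so 0 is a gene as bright as that percentile. Differences are log2 fold changes ± SE from limma, adjusted over all genes tested by the Benjamini-Hochberg method, with n = 3 arrays per group and a threshold of 0.05. A gene stands on its brightest probe, and levels are compared between groups for 1 probe, never between probes. In bulk samples, fewer cells of a type and less RNA per cell cannot be told apart.

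Of the 46 genes, 10 lie side by side on chromosome 9, where their probes span 417 kb of build mm9: Mmp13, Mmp12, Mmp1b, Mmp3, Mmp1a, Mmp10, Mmp8, Mmp27, Mmp20 and Mmp7. The neighbours Adamts15 and Adamts8 (probes within 63.4 kb) also lie on chromosome 9, and Adamts1 and Adamts5 (104 kb) on chromosome 16. These were the only members within 1 Mb of one another. Promoters of 32 of the 46 genes were found in the RefSeq table for GRCm38.p6. The 7-base motif TGACTCA, or TGAGTCA when read on the opposite strand, is the classic site of the AP-1 transcription factors of the Fos and Jun families. It was searched in the 250 bases before each start site, on both strands. A match was found for 7 of these genes, Mmp13, Mmp12, Mmp1b, Mmp3, Mmp1a, Mmp10 and Mmp7, and all 7 are in the chromosome 9 cluster. Among all 32851 promoters of the table, 4.46% held it. A match is a description of the letters and not evidence that a factor binds there. The last 100 bases before the start are shown for the 4 cluster genes whose levels are described below, on the + strand with the motif in capitals. They lie at chr9:7445722-7445821 for Mmp3, chr9:7502242-7502341 for Mmp10, chr9:7347274-7347373 for Mmp12 and chr9:7272414-7272513 for Mmp13 (GRCm38.p6). The Mmp12 stretch precedes the second of the 2 starts in the table.
Mmp3: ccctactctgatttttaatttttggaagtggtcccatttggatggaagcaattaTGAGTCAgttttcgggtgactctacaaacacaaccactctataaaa
Mmp10: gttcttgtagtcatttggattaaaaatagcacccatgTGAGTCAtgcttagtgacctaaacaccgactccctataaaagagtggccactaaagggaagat
Mmp12: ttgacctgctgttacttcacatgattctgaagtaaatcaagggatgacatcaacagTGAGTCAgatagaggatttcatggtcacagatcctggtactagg
Mmp13: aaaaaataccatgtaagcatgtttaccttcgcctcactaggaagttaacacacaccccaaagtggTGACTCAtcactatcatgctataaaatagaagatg
The motif starts 35 bases before the start of Mmp13, 44 before that of Mmp12, 46 before that of Mmp3 and 63 before that of Mmp10.

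The arrays read each gene through probes of 60 bases. Mmp12 is shown because its call in PSC rests on a gene with 3 probes, and Mmp23 because it changed in cancer cells and has 1 probe. The probes below lie at chr9:7354810-7355325 and chr9:7352935-7352994 on the + strand for Mmp12 and at chr4:155025377-155025436 on the - strand for Mmp23 (mm9, as the files give them), and no part is marked.
Mmp12 A_51_P313674: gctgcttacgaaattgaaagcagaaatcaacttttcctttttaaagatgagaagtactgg
Mmp12 A_55_P2024803: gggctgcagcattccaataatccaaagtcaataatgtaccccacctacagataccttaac
Mmp23 A_51_P502132: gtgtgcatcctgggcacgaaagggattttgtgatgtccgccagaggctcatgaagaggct

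The arrays showed which members' transcripts were detected in each culture. Of 46 genes, 29 were well above background on all 3 PSC WT arrays, 27 on all PSC HT arrays and 20 on all arrays of each cancer cell group. On every array, 17 were: the proteases Mmp10, Mmp11, Mmp14, Mmp16, Mmp17, Mmp19, Mmp23, Mmp28, Adamts1, Adamts4, Adamts7, Adamts9, Adamts10 and Adamts14, and the inhibitors Timp1, Timp2 and Timp3. Another 9 were on none: Mmp1a, Mmp1b, Mmp7, Mmp20, Mmp24, Mmp25, Adamts13, Adamts16 and Adamts19. Mmp7, matrilysin, a protease of epithelial cells, was thus not detected in the cancer cells at this signal over background. Mmp9, gelatinase B, which neutrophils and macrophages produce, was above background on PSC HT 1 only. Timp4 was near the limit, above background on 2 arrays each of PSC WT, PSC HT and cancer control and on none in conditioned medium.

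**Figure D1:**
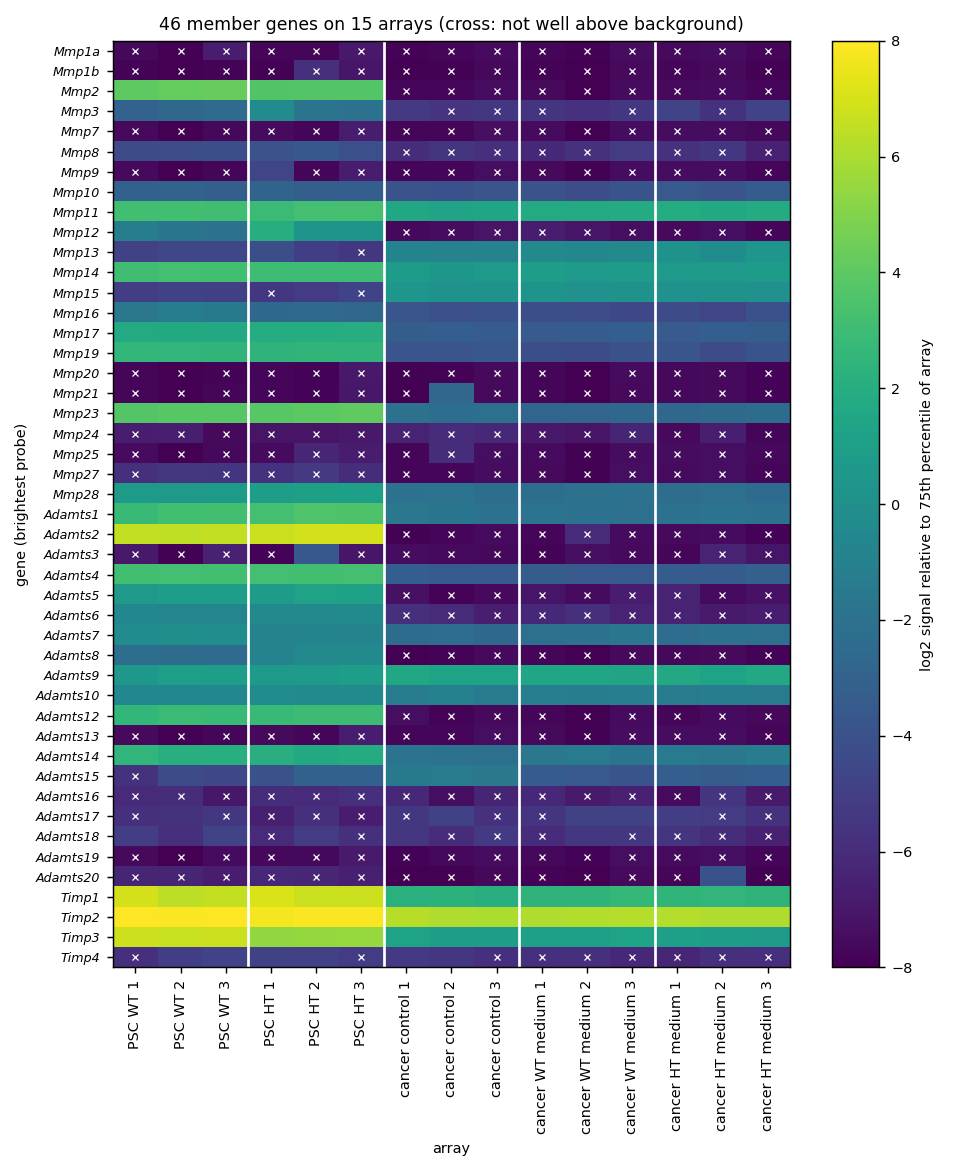
Level of each of the 46 member genes (rows, brightest probe) on each of the 15 arrays (columns), as log2 signal relative to the array's 75th percentile. Crosses mark values not well above background: Mmp2, Mmp12, Adamts2, Adamts5, Adamts6, Adamts8 and Adamts12 carry crosses on all 9 cancer cell arrays and none on the 6 PSC arrays.

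The share of spots well above background ran from 54.3% to 63.8% over the arrays, and no spot was saturated. The arrays lay on 2 slides, each with arrays of all 5 groups. All 12 stellate markers examined were above background on every PSC array, and 9 of 10 epithelial markers on every cancer cell array. PSC HT 3 stood apart: Cdh1, the epithelial cadherin, read -2.45 there against -8.22 to -7.61 on the other PSC arrays, and its lowest signal well above background (-4.73) was higher than on the other PSC arrays (-6.01 to -5.55). Among the cancer cells, WT medium 2 carried more collagen transcript, with Col1a2 at -3.29 against -6.01 to -4.26 on the other cancer cell arrays. Results that rest on these arrays are given with and without them.

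How the 2 genotypes of stellate cells differ was asked first. In PSC HT, the macrophage elastase Mmp12 and the proteoglycan-cutting Adamts8 were higher, with a small rise of Mmp28. The inhibitor Timp3, the membrane protease Mmp16, the cartilage-protein protease Adamts7 and the gelatinase Mmp2 were lower. The proteases Mmp14, Mmp11, Mmp19 and Mmp23 and the inhibitors Timp1 and Timp2 did not pass the threshold. Of 30 members tested, 3 rose and 4 fell (23.3%), where 7.73% of all 20886 genes passed, 2.95% higher and 4.78% lower. The groups did not overlap in 17 of 30 members, against 29.1% of all genes. The median difference of the members was 0.07 and that of all genes -0.003.

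Among the inhibitors, Timp3 read 6.76, 6.66 and 6.70 in PSC WT and 5.42, 5.49 and 5.56 in PSC HT. Every WT array was well above every HT array, and the arrays of each group lay close together. Timp3, probed at chr10:85811696-85811755 (mm9), fell by 1.22 ± 0.07 (2.33-fold, adjusted p = 0.000871), and its other probes gave differences of -1.15 and -0.94. Timp1, which stellate cells secrete in large amounts, read 6.95, 6.42 and 6.52 in WT and 7.12, 6.72 and 6.74 in HT, groups that overlap (0.23 ± 0.18, adjusted p = 0.527). Timp2, which helps MMP14 to activate pro-MMP2 and also inhibits it, read 8.26, 7.89 and 7.99 in WT and 7.77, 7.92 and 7.93 in HT, which overlap too (-0.17 ± 0.12, adjusted p = 0.464). The 95% interval of the Timp2 difference, -0.45 to 0.11, and that of Timp1, -0.20 to 0.65, do not reach the fall of Timp3.

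Among the gelatinases and membrane proteases, Mmp2, which cuts gelatin and basement membrane collagen, read 4.0, 4.20 and 4.27 in PSC WT and 3.68, 3.70 and 3.73 in PSC HT. The HT arrays lay close together and below all WT arrays. Mmp2 fell by 0.45 ± 0.09 (1.37-fold, adjusted p = 0.0324). Mmp16 (MT3-MMP), a membrane protease that can activate pro-MMP2, read -1.67, -1.31 and -1.51 in WT and -2.61, -2.50 and -2.74 in HT. All HT arrays were below all WT arrays, and it fell by 1.12 ± 0.12 (2.18-fold, adjusted p = 0.00397). Another Mmp16 probe, above background on 2 arrays of a group at most, gave -0.89, and the remaining one was above background on none. Mmp14 (MT1-MMP), the main activator of pro-MMP2 at the cell surface, read 3.08, 3.21 and 3.15 in WT and 3.04 on each HT array. The HT readings were just below those of WT, and the difference of -0.10 ± 0.07 did not pass (adjusted p = 0.451, 95% interval -0.27 to 0.06). The GPI-anchored Mmp17 had 0.19 ± 0.07 (adjusted p = 0.188).

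In the ADAMTS family, Adamts8, which can cut aggrecan and restrains blood vessel growth, read -2.23, -2.32 and -2.39 in PSC WT. In PSC HT it read -0.87, -0.48 and -0.38, above all WT arrays. Adamts8, probed at chr9:30770384-30770443 (mm9), rose by 1.74 ± 0.14 (3.33-fold, adjusted p = 0.00166). Its neighbour Adamts15, another aggrecan-cutting enzyme, read -5.68, -4.25 and -4.53 in WT and -4.03, -3.04 and -3.03 in HT. The groups did not overlap, but the WT arrays varied widely and WT 1 was not above background, and the difference of 1.45 ± 0.44 did not pass (adjusted p = 0.112). It passed with slide as a block (1.75, adjusted p = 0.047) and with the replicate number as a block (adjusted p = 0.00781). Adamts7, which cuts cartilage oligomeric matrix protein (COMP), read -0.29, -0.06 and -0.14 in WT and -0.85, -0.76 and -0.85 in HT. All HT arrays were below all WT arrays, and Adamts7 fell by 0.65 ± 0.09 (1.57-fold, adjusted p = 0.00899). Its relative Adamts12 had 0.11 ± 0.11 (adjusted p = 0.633).

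Further Adamts members stayed short of the threshold. Adamts2, the main N-proteinase of procollagen I, read 6.50, 6.46 and 6.53 in WT and 6.72, 6.89 and 7.0 in HT, with all HT arrays higher. Its difference of 0.37 ± 0.09 had an adjusted p of 0.0625, and it passed without PSC HT 1 (0.45, adjusted p = 0.0448). Adamts14, also a procollagen N-proteinase, had the opposite sign (-0.36 ± 0.15, adjusted p = 0.245). The proteoglycan-cutting Adamts1 (0.41 ± 0.15, adjusted p = 0.171), Adamts5 (0.20 ± 0.15), Adamts4 (0.04 ± 0.08) and Adamts9 (-0.09 ± 0.15) gave adjusted p-values up to 0.843.

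Of the secreted MMPs, Mmp12, which cuts elastin and is made chiefly by macrophages, read -1.19, -1.81 and -2.01 in PSC WT and 1.99, 0.28 and 0.26 in PSC HT. All HT arrays were above all WT arrays, and HT 1 was far above the other HT arrays. Mmp12, with its brightest probe at chr9:7358559-7358618 (mm9), rose by 2.51 ± 0.50 (5.71-fold, adjusted p = 0.0327). The 2 probes whose sequences are given above showed 2.64 and 1.91. Mmp3 (stromelysin-1), which cuts many matrix proteins and activates other MMPs, read -2.97, -2.58 and -2.40 in WT and -0.29, -1.86 and -1.96 in HT. Mmp3 was also highest on HT 1, and its difference of 1.28 ± 0.45 did not pass (adjusted p = 0.163). Mmp28 (epilysin) read 0.74, 0.63 and 0.72 in WT and 1.00, 1.06 and 1.00 in HT, a small rise of 0.32 ± 0.07 (1.25-fold, adjusted p = 0.0452). Mmp13, an interstitial collagenase, was near background in PSC (-0.19 ± 0.31, adjusted p = 0.789). Mmp10 (-0.04 ± 0.12), Mmp11 (-0.002 ± 0.11), Mmp15 (-0.14 ± 0.17), Mmp19 (-0.07 ± 0.07) and Mmp23 (0.17 ± 0.10) gave adjusted p-values of 0.373 to 0.994.

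**Figure D2:**
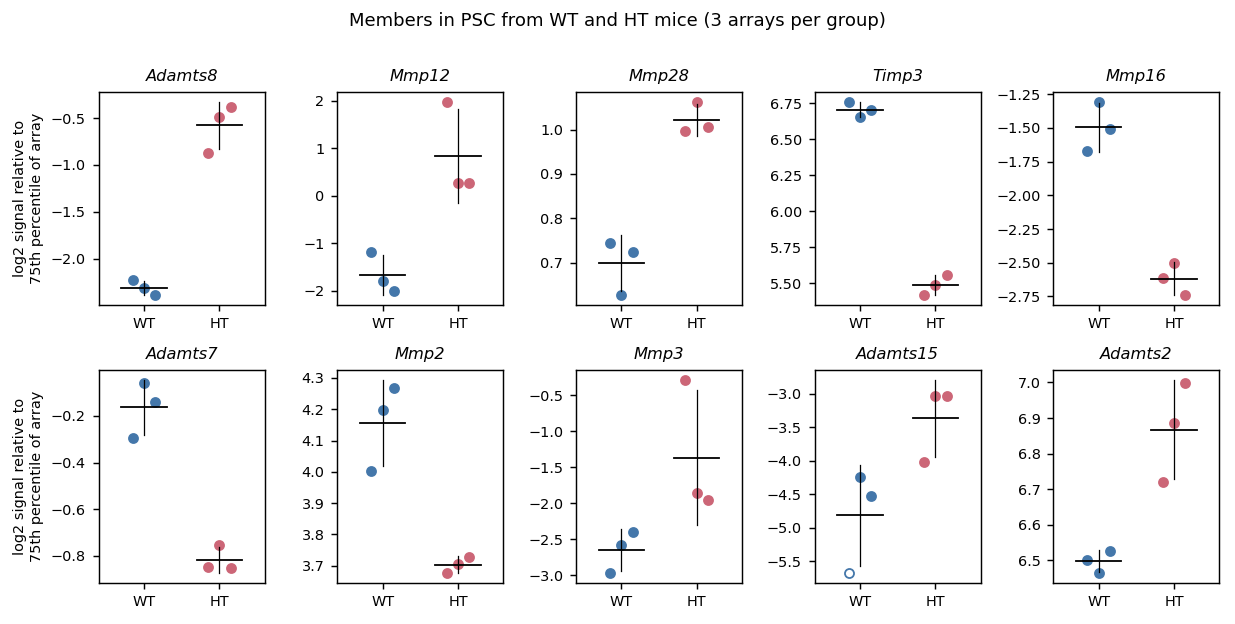
Levels of the 7 members that passed the threshold between PSC genotypes and of Mmp3, Adamts15 and Adamts2, which did not, as log2 signal relative to the array's 75th percentile (y axes differ between panels and do not start at 0). Points are arrays (open: not well above background), horizontal lines the means and vertical lines ± SD with n = 3. In all 10 panels the WT and HT points do not overlap, as in 17 of 30 members tested and 29.1% of all genes. HT 1 is the highest point for Mmp12 and Mmp3.

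Markers of other cells moved between the same groups. Of 19 macrophage markers tested, 16 were higher in PSC HT and 0 lower. Their median difference was 2.77, against -0.003 over all genes. Of all genes, 2.95% were higher and 4.78% lower. The sum over all 20 markers on the log2 scale was 5.79 to 6.15 in WT and 6.79 to 7.81 in HT, with its maximum on HT 1. Itgam weighed most in the WT sum and overlapped between the genotypes (5.11 to 5.25 in WT, 5.10 to 5.17 in HT). Ptprc overlapped as well (1.63 to 2.06 in WT, 1.56 to 1.95 in HT). Of 20 macrophage markers, 17 to 19 were above background on a WT array and 19 to 20 on an HT array. Adgre1 (F4/80), a defining macrophage marker, read -2.02, -3.00 and -3.38 in WT and 1.16, -0.54 and -0.43 in HT. It was highest on array 1 of each genotype, as Mmp12 was. Mmp3 was highest on HT 1, but among the WT arrays it was lowest on WT 1. Without HT 1, the difference of Mmp12 was 1.94 (adjusted p = 0.0156). The part of the macrophage transcripts in the values of Mmp12, Mmp3 and Mmp9 was not tested. Of 6 mesothelial markers, 5 were lower in PSC HT and 0 higher, with summed levels of 5.28 to 5.59 in WT and 3.39 to 4.10 in HT. Of 5 endothelial markers tested, 4 were lower and 0 higher, at 0.21 to 0.40 in WT and -1.94 to -1.64 in HT. Of 6 endothelial markers, 5 were above background on each WT array and 4 on each HT array. The part of the mesothelial and endothelial transcripts in the lower values of Timp3, Mmp16, Adamts7 and Mmp2 was not tested. Of 12 stellate markers, 1 was higher and 0 lower, with summed levels of 10.1 to 10.6 in WT and 10.4 to 10.5 in HT.

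**Figure D3:**
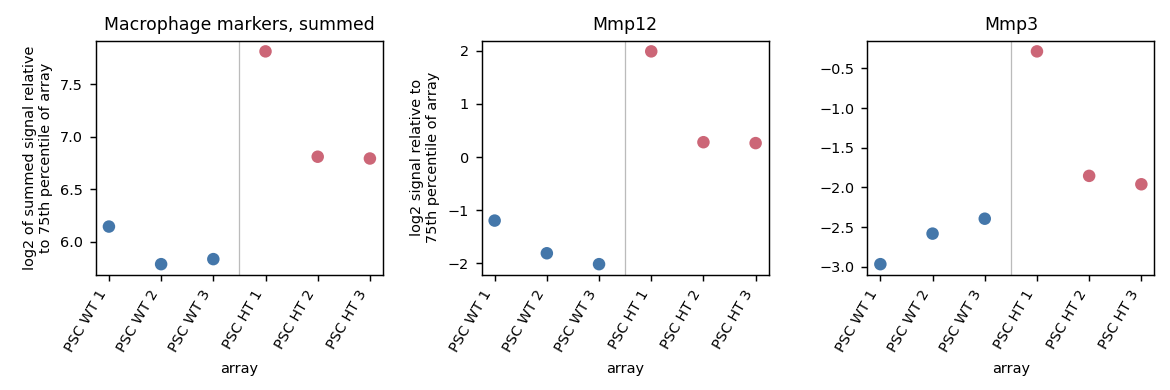
Summed signal of 20 macrophage markers (left) and levels of Mmp12 (middle) and Mmp3 (right) on each of the 6 PSC arrays, all as log2 relative to the array's 75th percentile (axes do not start at 0). PSC HT 1 is the highest array in each panel, with a marker sum of 7.81, Mmp12 at 1.99 and Mmp3 at -0.29. Among the WT arrays, PSC WT 1 is highest for the marker sum and Mmp12 and lowest for Mmp3.

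The calls in PSC were of unequal strength. Timp3, Mmp16 and Adamts8 passed whichever single array was left out. With the mean of all probes of a gene, however, Mmp16 had -0.54 and did not pass (adjusted p = 0.0834). Nor did Mmp12 (2.35, adjusted p = 0.0626) and Mmp28 (0.18, adjusted p = 0.447) with that setting. Mmp28 did not pass with any array left out (adjusted p = 0.0637 to 0.147), Mmp2 passed only without PSC WT 1 (0.0225, otherwise 0.0887 to 0.126), Mmp12 only without PSC HT 1 (otherwise 0.0522 to 0.124), and Adamts7 was lost without PSC WT 3 (0.054). With slide as a block, Timp3 (-1.23), Adamts8 (1.74), Mmp16 (-1.05) and Adamts7 (-0.61) passed, while Mmp12 (2.25, adjusted p = 0.058), Mmp2 (-0.42, adjusted p = 0.0502) and Mmp28 (0.32, adjusted p = 0.0671) did not. Within slide 1 and slide 2 respectively, the differences were -1.28 and -1.19 for Timp3, 1.61 and 1.87 for Adamts8, -1.0 and -1.09 for Mmp16, 2.32 and 2.19 for Mmp12, -0.56 and -0.66 for Adamts7, -0.30 and -0.53 for Mmp2, and 0.26 and 0.39 for Mmp28. Without PSC HT 3, which carried epithelial transcripts, Timp3, Adamts8, Mmp16 and Adamts7 passed.

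Other proteases and inhibitors of the pericellular matrix, a list of 50 genes (ADAMs, ADAMTS-like proteins, plasminogen activators, cathepsins, proprotein convertases and substrates), gave 3 higher and 2 lower of 43 tested in PSC HT. Their median was 0.12 and that of all genes -0.003. By comparison, 2.95% of all genes were higher and 4.78% lower. Ctss, a cathepsin of antigen-presenting cells, rose by 2.59 ± 0.53 (adjusted p = 0.0354) and Adam8, a protease of leukocytes, by 2.40 ± 0.45 (adjusted p = 0.0279). Plau, urokinase, which makes plasmin and so activates MMPs, rose by 0.55 ± 0.11 (adjusted p = 0.0311). Tll1, a procollagen C-proteinase of the tolloid family, fell by 1.31 ± 0.14 (adjusted p = 0.00393) and the ADAMTS-like Adamtsl4, which binds fibrillin, by 0.59 ± 0.09 (adjusted p = 0.0145). The part of macrophage transcripts in Ctss and Adam8 was not tested.

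What conditioned medium does to the cancer cells was asked next. In both media, Adamts15, an aggrecan- and versican-cutting protease, was lower than in control medium, by 3.20-fold to 4.03-fold. Mmp11 (stromelysin-3), which is cut to its active form inside the cell, was slightly higher in both. Mmp23 was lower in WT medium, and the collagenase Mmp13 and the procollagen N-proteinase Adamts14 were higher in HT medium. The inhibitors Timp1, Timp2 and Timp3 and the membrane proteases Mmp14 and Mmp15 did not pass in either. Both comparisons use the same 3 control arrays, so they are not independent of each other. Of 20 members tested, WT medium raised 1 and lowered 2 (15%), where 5.95% of all 19687 genes passed, 2.8% higher and 3.15% lower. HT medium raised 3 and lowered 1 (20%), where 5.47% of genes passed, 2.97% higher and 2.5% lower. The member medians were 0.01 and -0.01, against 0.03 and 0.01 over all genes. Groups did not overlap in 9 of 20 members for WT medium (25.3% of all genes) and in 8 for HT medium (24.4%).

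Adamts15, probed at chr9:30707033-30707092 (mm9), read -1.55, -1.50 and -1.65 in control medium. It read -3.35, -3.56 and -3.82 in WT medium and -3.23, -3.26 and -3.25 in HT medium. All 6 arrays in conditioned medium lay far below the controls, and the WT medium arrays were the lowest. Adamts15 fell by 2.01 ± 0.11 in WT medium (4.03-fold, adjusted p = 8.44e-05) and by 1.68 ± 0.11 in HT medium (3.20-fold, adjusted p = 0.000281). Within slides 1 and 2, the differences were -1.75 and -2.19 in WT medium and -1.64 and -1.76 in HT medium.

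Mmp13, which cuts fibrillar collagens, read -0.80, -0.93 and -0.84 in control medium, -0.34, -0.51 and -0.39 in WT medium and 0.13, -0.19 and 0.41 in HT medium. The 3 groups did not overlap, with HT medium highest. Mmp13 rose by 0.97 ± 0.14 in HT medium (1.96-fold, adjusted p = 0.00614), and the difference in WT medium was 0.44 ± 0.14 (adjusted p = 0.11). Within slides 1 and 2, the HT medium differences were 1.09 and 0.74. With slide as a block, Mmp13 in WT medium also passed (0.52, adjusted p = 0.0392), as it did without HT medium 2, an array that takes part only in the estimate of the spread (adjusted p = 0.038).

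Mmp11 read 1.56, 1.36 and 1.39 in control medium, 1.76, 1.77 and 1.82 in WT medium and 1.89, 1.71 and 1.86 in HT medium. The arrays in conditioned medium were all above the controls, by little. Mmp11 rose by 0.35 ± 0.08 (adjusted p = 0.0365) in WT medium and by 0.38 ± 0.08 (adjusted p = 0.0275) in HT medium. Mmp11 passed in both comparisons only when cancer control 1 or HT medium 2 was left out, and not without any other array (adjusted p = 0.0507 to 0.138). In WT medium, Mmp11 also did not pass with no filter on dim probes (adjusted p = 0.15), median scaling (0.0991) or the authors' series matrix (0.0673). With slide (0.0291) or replicate number (0.0496) as a block, it passed there. In HT medium it was lost with no filter (0.122) and with median scaling (0.072). Within slides 1 and 2, it had 0.28 and 0.44 in WT medium and 0.40 and 0.35 in HT medium.

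Adamts14 read -1.92, -2.04 and -2.08 in control medium, -1.65, -1.42 and -1.77 in WT medium and -1.44, -1.63 and -1.25 in HT medium. The controls were lowest, and the media overlapped. Adamts14 rose by 0.58 ± 0.12 in HT medium (1.49-fold, adjusted p = 0.0303), and the difference in WT medium was 0.40 ± 0.12 (adjusted p = 0.0983). The rise was lost without any one of the 3 control arrays, WT medium 1, HT medium 1 or HT medium 3 (adjusted p = 0.0567 to 0.101), and was 0.66 within slide 1 and 0.42 within slide 2.

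Mmp23, an atypical MMP that is anchored in the membrane and shed when cut by proprotein convertases, read -2.02, -2.24 and -2.09 in control medium. It read -2.81, -2.81 and -2.67 in WT medium and -2.61, -2.50 and -2.34 in HT medium, so that control was highest and WT medium lowest with no overlap. Mmp23 fell by 0.64 ± 0.09 in WT medium (1.56-fold, adjusted p = 0.00542), with -0.75 within slide 1 and -0.50 within slide 2. The difference in HT medium was -0.36 ± 0.09 and did not pass (adjusted p = 0.0608).

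**Figure D4:**
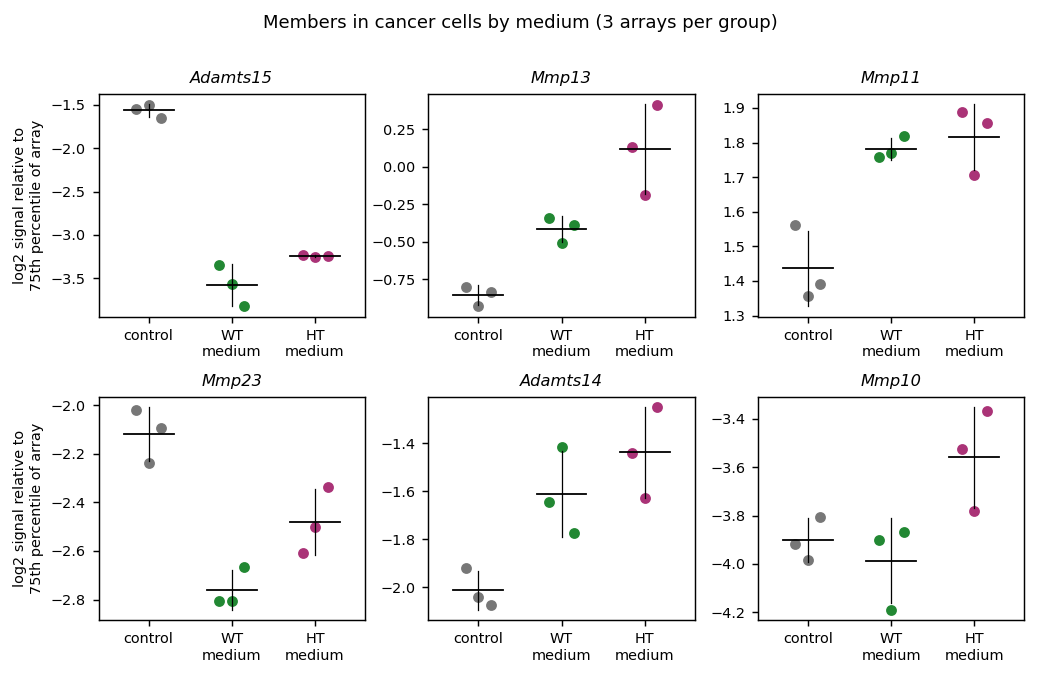
Levels of Adamts15, Mmp13, Mmp11, Mmp23, Adamts14 and Mmp10 in cancer cells in control medium, WT medium and HT medium, as log2 signal relative to the array's 75th percentile (y axes differ between panels and do not start at 0). Points are arrays, horizontal lines the means and vertical lines ± SD with n = 3; for Adamts15 all 6 points in conditioned medium lie below the controls, and for Mmp13 the 3 groups are apart with HT medium highest.

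The inhibitors did not pass in either medium in the main fit. Timp1 had 0.31 ± 0.09 in WT medium (adjusted p = 0.091) and 0.25 ± 0.09 in HT medium (adjusted p = 0.158). In WT medium it passed with limma's trend and robust variance settings (adjusted p = 0.0387). Timp2 had 0.00 ± 0.07 and -0.02 ± 0.07, with 95% intervals of -0.16 to 0.17 and -0.19 to 0.15. Timp3 had 0.08 ± 0.12 and -0.08 ± 0.12. Among the proteases, Mmp14 (0.12 ± 0.11 and 0.05 ± 0.11), Mmp15 (-0.09 ± 0.08 and -0.13 ± 0.08), Mmp28 (-0.03 ± 0.10 and -0.20 ± 0.10), Adamts1 (-0.19 ± 0.09 and -0.15 ± 0.09), Adamts4 (-0.03 ± 0.11 and 0.12 ± 0.11) and Adamts9 (0.06 ± 0.12 and 0.18 ± 0.12) did not pass in WT or HT medium. Mmp19 had -0.44 ± 0.15 in WT medium (adjusted p = 0.141), which passed without HT medium 2 (adjusted p = 0.0278), and -0.27 ± 0.15 in HT medium. Mmp10 (stromelysin-2) had -0.09 ± 0.13 in WT medium and 0.34 ± 0.13 in HT medium (adjusted p = 0.17).

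Stellate markers were examined on the same arrays. Of the 12 stellate markers, 3 were tested in cancer cells, and 1 was higher in WT medium and 0 in HT medium. By comparison, 2.8% of all genes were higher in WT medium and 2.97% in HT medium. The sum over all 12 stellate markers was 4.04 to 4.22 in control medium, 4.44 to 4.61 in WT medium and 4.25 to 4.50 in HT medium. Acta2 alone made up most of this sum, at 3.96 to 4.15, 4.30 to 4.52 and 4.15 to 4.43 in the same order. Of 4 neutrophil markers tested, 2 were higher in each medium, with summed levels of -0.12 to 0.25 in control medium, 0.42 to 0.67 in WT medium and 0.37 to 0.67 in HT medium. The part of either kind of transcript in the members' values was not tested. By their brightest probes, Mmp2 and Adamts2, abundant in PSC, were not well above background on any of the 9 cancer cell arrays, and another probe of Adamts2 was on cancer control 3 (-4.22). Without WT medium 2, the array with more collagen transcript, Adamts15 and Mmp23 passed in WT medium and Adamts15, Mmp13 and Adamts14 in HT medium, while Mmp11 passed in neither (adjusted p = 0.101 and 0.0515).

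Of the 50 companion genes, 35 were tested in cancer cells, where 4 rose and 1 fell in each medium (medians 0.04 in WT medium and 0.09 in HT medium, against 0.03 and 0.01 over all genes). By comparison, 2.8% of all genes rose and 3.15% fell in WT medium, and 2.97% rose and 2.5% fell in HT medium. Lrp1, the endocytic receptor that clears several MMPs, ADAMTS enzymes and protease-inhibitor complexes, fell by 0.83 ± 0.10 in WT medium (adjusted p = 0.00296) and by 0.79 ± 0.10 in HT medium (adjusted p = 0.00449). Thbs1, a matrix glycoprotein that activates TGF-beta, rose by 0.56 ± 0.11 in WT medium (adjusted p = 0.0241) and by 0.70 ± 0.11 in HT medium (adjusted p = 0.0114). In HT medium Plau rose by 0.85 ± 0.14 (adjusted p = 0.0123) and Adam8 by 0.45 ± 0.10 (adjusted p = 0.036). In WT medium the secreted serine protease Htra1 rose by 0.45 ± 0.09 (adjusted p = 0.028) and Pcolce2, an enhancer of procollagen C-proteinases, by 0.43 ± 0.09 (adjusted p = 0.0256).

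Whether the genotype of the stellate cells mattered for the cancer cells was tested directly between the 2 media. No member passed: 0 of 20 were called by limma, and 0 of all 19687 genes (0%). At an unadjusted p of 0.05, 4 of 20 members and 4.88% of all genes were under it. These 4 members were Mmp13 (0.53 ± 0.14, adjusted p = 0.876, 95% interval 0.22 to 0.85), Mmp10 (0.43 ± 0.13, adjusted p = 0.923, 0.14 to 0.71), Adamts15 (0.33 ± 0.11, adjusted p = 0.972, 0.08 to 0.59) and Mmp23 (0.28 ± 0.09, adjusted p = 0.972, 0.07 to 0.49), each higher in HT medium with no overlap between the media. Groups did not overlap in 5 of 20 members, against 11.5% of all genes. For the inhibitors the intervals were -0.26 to 0.15 for Timp1, -0.19 to 0.15 for Timp2 and -0.44 to 0.12 for Timp3. The call of Mmp13 in HT medium and not in WT medium is therefore no shown difference between the media.

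Which members distinguish the cell types was asked last, with untreated cells only. By their brightest probes, Adamts2, Mmp2, Adamts12, Adamts5, Adamts6, Mmp12, Adamts8 and Mmp8 were above background on every PSC WT array and on no control array of the cancer cells. Another Adamts2 probe was above background on cancer control 3. The inhibitors Timp1, Timp2 and Timp3 and the proteases Adamts1, Adamts4, Adamts14, Mmp11, Mmp14, Mmp17, Mmp19, Mmp23 and Mmp28 were present in both and higher in PSC WT. The cancer cells had more Mmp15, Mmp13, Adamts15 and Adamts9. Of 30 members tested, 25 were higher in PSC WT and 4 lower, where 71.4% of all 21928 genes passed, 36.1% higher and 35.2% lower. Groups did not overlap in 29 members, against 75.6% of all genes. The member median was 3.51, or 3.01 with the 8 genes below background in cancer controls set at their bounds, and that of all genes was 0.04. Cell type cannot be told apart here from culture history and source.

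Where a gene was not well above background in the cancer controls, its fold is a lower bound, taken on each array against the lowest signal well above background or the probe's own signal, whichever was higher. On this basis Adamts2 was at least 4240-fold higher in PSC WT, where it read 6.50, 6.46 and 6.53 (adjusted p = 1.02e-08). Mmp2 was at least 838-fold higher (adjusted p = 1.02e-08), Adamts12 at least 321-fold, Adamts5 at least 85.5-fold, Adamts6 at least 30.5-fold, Mmp12 at least 14.7-fold, Adamts8 at least 9.44-fold and Mmp8 at least 2.49-fold. The lower bounds were highest for the procollagen proteinase Adamts2 and the gelatinase Mmp2. Adamts12 and Adamts7 cut COMP, Adamts6 is tied to fibrillin microfibrils, and Adamts5 is the major aggrecanase of cartilage.

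Among genes measured on both sides, Adamts4, which cuts aggrecan and versican, was 94.8-fold higher in PSC WT, at 3.17, 3.25 and 3.15 against -3.22, -3.48 and -3.43 (6.57 ± 0.10, adjusted p = 2.18e-08). Mmp19 was 75.9-fold higher (6.25 ± 0.09), Mmp23 60.6-fold (5.92 ± 0.10) and the GPI-anchored Mmp17 32.9-fold (5.04 ± 0.09). Of the inhibitors, Timp3 was 51.1-fold higher (5.68 ± 0.13), Timp1 21.6-fold (4.44 ± 0.16) and Timp2 3.71-fold (1.89 ± 0.13). Timp2 read 6.28, 6.12 and 6.06 in cancer controls, so this inhibitor was bright in both cell types. Adamts1 was 28.8-fold higher (4.85 ± 0.14) and Adamts14 18.9-fold (4.24 ± 0.15). The activator Mmp14 was 5.67-fold higher (2.50 ± 0.12), Mmp28 6.75-fold (2.76 ± 0.11), Mmp11 3.26-fold (1.71 ± 0.09) and Mmp10 1.82-fold (0.87 ± 0.10). Mmp3 was above background on 1 of 3 control arrays, at -5.26, -5.60 and -5.40 there, and was higher in PSC WT (adjusted p = 1.06e-05), with no fold given.

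Mmp15 (MT2-MMP), a membrane protease of epithelial cells, was the member with the largest excess in the cancer cells. It read -5.08, -4.90 and -4.98 in PSC WT and 0.39, 0.20 and 0.20 in cancer controls, a 38.1-fold difference (5.25 ± 0.10 on the log2 scale lower in PSC WT, adjusted p = 4.28e-08). Mmp13 was 14.3-fold higher in cancer controls (adjusted p = 2.99e-07) and Adamts15 9.53-fold (adjusted p = 0.000189), the latter with 2 of 3 PSC WT arrays above background. Adamts9 was only 1.42-fold higher (adjusted p = 0.0241), and it did not pass without cancer control 1 (adjusted p = 0.0746). Mmp13 and Adamts15, which passed in conditioned medium, were both more abundant in cancer cells than in PSC, while Mmp11, Adamts14 and Mmp23 were more abundant in PSC. Adamts18 did not pass (0.36 ± 0.28, adjusted p = 0.278), except without PSC WT 2 (0.64, adjusted p = 0.0444).

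**Figure D5:**
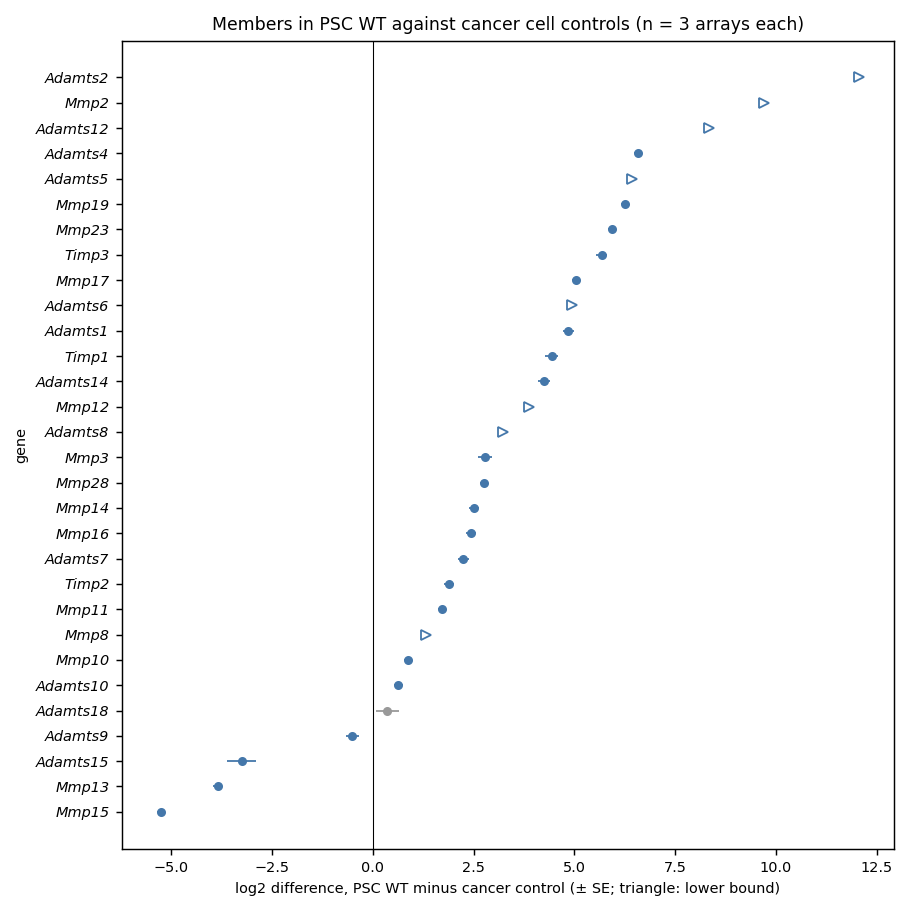
Log2 difference between PSC WT and cancer cell controls for the 30 members tested, with SE (points, n = 3 arrays per group) or as a lower bound where the gene was not above background in the controls (triangles); the grey point did not pass. Of the 30 members, 26 lie right of 0 (higher in PSC WT), and Mmp15, Mmp13, Adamts15 and Adamts9 lie left of it.

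Of the companion genes, 43 were tested between the cell types, and 28 were higher in PSC WT and 7 lower (median 2.19, or 1.99 with 10 genes at their bounds, against 0.04 over all genes). By comparison, 36.1% of all genes were higher and 35.2% lower. Adam19 was at least 954-fold higher, the matrix glycoprotein Thbs2 at least 609-fold and Mrc2 (Endo180), which takes up cut collagen, at least 101-fold. Reck, a membrane-anchored inhibitor of MMPs, was at least 153-fold higher, Ctss at least 59.1-fold and the ADAMTS-like Adamtsl1 at least 44.6-fold. In the other direction, Acan (aggrecan), a proteoglycan that several ADAMTS enzymes cut, was lower in PSC WT than in cancer controls (-7.46 ± 0.22, adjusted p = 2.8e-07). PSC WT also carried transcripts of other cells, with 13 of 17 macrophage markers tested higher than in cancer controls and 2 lower. The median difference of these 17 was 2.93, against 0.04 over all genes. The sum over all 20 macrophage markers was 5.79 to 6.15 in PSC WT and 4.62 to 4.85 in cancer controls. Of 6 mesothelial markers tested, 5 were higher and 1 lower in PSC WT, and all 5 endothelial markers tested were higher, with summed levels of 0.21 to 0.40 against -3.34 to -2.78 in cancer controls. The mesothelial sums were 5.28 to 5.59 in PSC WT and 7.29 to 7.66 in cancer controls, where 1 of 6 markers was above background. The part of these transcripts in the members' values was not tested.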

How the data were processed

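RNA of 15 samples was labelled with Cy3 and hybridised to 1-colour mouse arrays (design 074809). The authors deposited the scanner output of each array, in which processed signals are spot intensities after background subtraction and detrending by Agilent's Feature Extraction software (version 10.7.3.1), as recorded per the file headers. They also deposited a series matrix of log2 values whose quantiles are shared within each cell type. How it was made is not given in the sources used here, and it served as an alternative within cell types only.

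From the deposited intensities, log2 of the processed signal minus the 75th percentile of its array was computed, without control and outlier spots. Spots of 1 probe were averaged, and the brightest probe stood for a gene. A gene was tested where, in 1 or more groups of a fit, every array had it well above background, and the test used limma 3.58.1 (lmFit and eBayes, R 4.3.3) and Benjamini-Hochberg adjustment at 0.05. PSC WT against HT, the 3 cancer cell groups, and PSC WT against cancer controls were 3 separate fits. A bound written as "at least" sets the bright group's mean against the dim group's mean of, per array, the higher of the lowest signal well above background and the probe's own.

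Tables were read with jsonlite 2.0.0 and the R package data.table (1.17.8). Sequences and figures were handled with Python 3.11.15, pandas 2.3.3, numpy 2.4.6 and matplotlib 3.10.9. Probe names follow the files, updated by accession or symbol where RefSeq's table held them. Promoters are RefSeq's, of GRCm38.p6. The probe coordinates are of mm9, and the builds were not mixed.

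The members, gene lists and tests were chosen with earlier results of these data known. Genes named are the members past the threshold, for the cell types up to 12 in each direction, a fixed list of well-studied members, and up to 6 companion genes per comparison. A companion gene that passed is not reported here by name. Acan, Adamts3, Adamts6, Adamts8, Adamts10, Adamts17, Adamts18, Adamts20, Mmp8, Mmp16, Mmp17, Mmp21 and Mmp27 were in places named beyond that rule, after their values were seen.

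On simulated data with 3 arrays a group, the PSC fit over 20886 genes recovered 22.4% of genes changed by 0.5 on the log2 scale, 74.6% of those changed by 1 and 93.9% of those changed by 2. For changes of 0.5, recovery was 61.2% for WT medium against control and 8.96% between cell types. In the PSC simulation 67, 67 and 66 genes were changed by 0.5, 1 and 2. The real PSC fit called 1615 genes, so these shares need not hold for the data. The number of arrays limits the precision. Deviations of same-numbered cancer control and WT medium arrays were weakly correlated (r = 0.211, 0.256 and 0.227 across genes), but control 1 matched WT medium 2 best. Between control and HT medium, r for the same number was -0.146, 0.387 and 0.105, and between PSC WT and HT 0.197, 0.028 and -0.106. By this check the numbers are not shown to pair the arrays. The labels do not state a pairing.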

Additional observations from a re-analysis of the deposited data

Results flagged for a closer look

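A few members that entered no test in their comparison were well above background on 1 array in PSC HT or conditioned medium and on no array of PSC WT or control medium, respectively, by their brightest probes. Adamts3, a procollagen N-proteinase, read -3.69 on PSC HT 2. The gelatinase Mmp9 read -4.66 on PSC HT 1, the array with the highest macrophage marker sum. The neutrophil collagenase Mmp8 read -5.19 on cancer WT medium 3, and Adamts20 read -3.96 on cancer HT medium 2. The opposite also occurred: Mmp21 was above background on cancer control 2 (-2.73) and on no array in conditioned medium, and Mmp27 (-5.45) and Adamts17 (-5.65) on PSC WT 2 and on no PSC HT array. Each is a single reading with no replicate of its group above background, and its cause was not tested.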

How the results depend on the processing

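No named member that passed changed direction under any alternative run. Of those named that did not pass, 6 of 16 in PSC, 5 of 12 in WT medium, 3 of 12 in HT medium and 8 of 14 between the media took the other sign under at least 1 alternative, without passing there. In PSC, 7 members passed, against 3 with no filter on dim probes, 4 with the mean of all probes of a gene, and 3 to 6 with 1 array left out. In WT medium, 3 passed, against 2 to 5 with 1 array left out. Mmp11 was lost there with no filter, with median scaling and with the authors' series matrix. In every fit, each slide held only 1 array of at least 1 group, so counts of calls within a slide are not given. Within slide 2, Mmp21, which is not one of these 3, had -5.11 through its single reading on cancer control 2. In HT medium, 4 passed, against 2 with no filter, 2 in 1 fit over all 15 arrays, and 2 to 5 with 1 array left out. Between the media 0 members passed under each alternative, leaving out any 1 array included. Between cell types 29 passed, against 19 with a filter on all arrays (19 members tested) and 52 probes when all probes were tested separately, a setting chosen after seeing the data, and 28 to 30 with 1 array left out. Over all genes, 1615 passed in PSC and 401 with no filter. Scaling by the median moved the median of all genes between cell types to -0.35.

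With the replicate number as a block, 6 members passed in PSC, 3 in WT medium, 3 in HT medium, 0 between the media and 28 between cell types. Adamts15 was gained in PSC (1.45, adjusted p = 0.00781). Lost were Mmp2 (adjusted p = 0.0725) and Mmp28 (0.145) in PSC, Adamts14 (0.0701) in HT medium and Adamts9 (0.0629) between cell types. No other named call was lost with this block. Each slide holds 1 or 2 arrays of a group, which limits the tests within it, and dim members stand on signal near background.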

Other observations

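Regulators of protease genes, a list of 22 transcription factors and cytokines, were also examined. In PSC HT, 3 of 19 tested rose and 0 fell (median 0.08, against -0.003 over all genes). By comparison, 2.95% of all genes rose and 4.78% fell. Il6, an inflammatory cytokine, rose by 0.58 ± 0.10 (adjusted p = 0.0232), Runx1 by 0.52 ± 0.07 (adjusted p = 0.012) and Runx2, a transcription factor of bone and cartilage cells, by 0.45 ± 0.09 (adjusted p = 0.0306), by limma's test with n = 3 arrays per group. In cancer cells, the AP-1 genes Fosb and Junb rose in WT medium, by 0.52 ± 0.09 (adjusted p = 0.0101) and 0.43 ± 0.09 (adjusted p = 0.0274). In HT medium, Fosb (0.63 ± 0.09, adjusted p = 0.00522), Fos (0.54 ± 0.11, adjusted p = 0.028), Junb (0.39 ± 0.09, adjusted p = 0.0433) and Fosl1 (0.34 ± 0.08, adjusted p = 0.0414) rose. Of 18 tested, none of this list fell in either medium, and both media share the control arrays. By comparison, 2.8% of all genes rose and 3.15% fell in WT medium, and 2.97% rose and 2.5% fell in HT medium. Between the media 0 of 18 passed by limma's test, and 0% of all genes did. At an unadjusted p of 0.05, 2 of 18 were under it, against 4.88% of all genes.

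Between cell types, 6 of 20 regulators tested were higher in PSC WT and 8 lower (median -0.24, against 0.04 over all genes). By comparison, 36.1% of all genes were higher and 35.2% lower. Il6 was at least 237-fold higher in PSC WT. Fos (3.17 ± 0.09) and Jun (2.80 ± 0.16) were higher in PSC WT on the log2 scale, while Fosl1 (-1.72 ± 0.10), Ets2 (-1.98 ± 0.08) and Runx2 (-1.64 ± 0.09) were lower.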
